A study of Mus musculus with 8 samples.

Results

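The matrix metalloproteinases (MMPs), the ADAMTS proteases and their tissue inhibitors (TIMPs) were followed in whole mammary tumours in which miR-21 was or was not sequestered in the carcinoma cells. The rule for the genes goes by name alone and takes every row of the count table whose Entrez identifier belongs to a mouse Mmp or numbered Adamts gene, with Timp1, Timp2 and Timp4. Any other gene of the TIMP family was not analysed here. This gave 45 genes out of the 27179 in the table, made up of 23 Mmp genes, 19 Adamts genes and 3 Timp genes, and no threshold on expression entered the rule, although the families were picked with earlier results of these data known.

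MMPs are zinc-dependent endopeptidases that are made as inactive proenzymes and, once activated, cut collagens, elastin, fibronectin and other proteins of the extracellular matrix. ADAMTS proteases are secreted relatives that carry thrombospondin repeats, and among their substrates are the proteoglycans aggrecan and versican and the propeptides of fibrillar collagens. TIMPs bind to the active site of these enzymes and block it. In breast tumours much of this protease pool is known to come from fibroblasts, macrophages and neutrophils as well as from the carcinoma cells.

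The tumours arose from 4T1.13, a metastatic mammary carcinoma line, injected into the mammary fat pad of female BALB/c mice. The miR-21-KD cells carried a miArrest lentiviral vector in which the H1 promoter drives an RNA that captures mature miR-21, and the vector control (VC) cells carried the same vector with a scrambled RNA. Both lines also carried the mCherry and hygromycin resistance genes of the vector, and each was a pool of several clones. A group's tumours came from a single pool, so differences between the pools could not be told apart from loss of miR-21 activity. There were 4 tumours per group, recovered at day 14 according to the labels, when the miR-21-KD tumours had begun to regress, although the methods of the study name an earlier day. The vector acts only in the injected cells, whereas total RNA was taken from the entire tumour with its host stroma and leucocytes, so that fewer cells of a type and less RNA per cell could not be told apart.

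The precursor gene of miR-21 (Mir21a) had 0 counts in all 8 tumours, and because the vector captures the mature RNA, these libraries hold no check of the knockdown itself. The mature mouse sequence (mmu-miR-21a-5p, RefSeq, GRCm38.p6 chr11:86584120-86584141, minus strand) is shown with its seed, bases 2 to 8, in capitals, because the matches to this seed in the members are described later.
mmu-miR-21a-5p: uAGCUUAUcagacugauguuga

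Between 12134849 and 13592695 reads per VC tumour and between 12550898 and 12783800 per miR-21-KD tumour were counted on genes. Values are given as CPM, the reads of a gene scaled to the size of the library, with TMM scaling, always in the order of replicates 1 to 4, and a count of 0 allows up to 3 counts, which is 0.221 to 0.247 CPM depending on the tumour and covers counting error only. Of the 7 markers of carcinoma epithelium all were detected in every tumour, and they did not move together: Epcam, Cdh1, Krt19, Krt5 and Krt14 were called higher in miR-21-KD tumours, Krt18 was lower (means of 1023 and 459.8 CPM) and Krt8 was not called (808 and 439 CPM). In each group the tumour numbered 4 stood apart in its B cell markers, whose summed level was 141 CPM in VC replicate 4 against 1.76 to 4.94 CPM in the other VC tumours and 60.4 CPM in miR-21-KD replicate 4 against 8.52 to 13.1 CPM in the other miR-21-KD tumours.

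The members took 0.383% to 0.521% of all reads in the VC tumours and 0.784% to 1.33% in the miR-21-KD tumours, with no overlap between the groups. Of the 45 genes, 32 had enough counts to be tested. Of these, 16 were higher in miR-21-KD tumours, 3 were lower and 13 did not pass an adjusted p of 0.05 in edgeR. Among all 14382 genes tested, 19.6% were called higher and 19.5% lower. The median log2 fold change of the 32 tested members was 0.86, against -0.01 over all tested genes. Of the tested members, 3 passed the filter on low counts through the miR-21-KD tumours, since Timp4 was below the minimum in all VC tumours and Mmp17 and Adamts3 in some, and a member that enters this way tends to differ. Without them 14 of 29 were higher and 3 lower, with a median of 0.63. Groups did not overlap for 13 tested members that were higher in miR-21-KD tumours and for 1 that was lower, and over all tested genes this held for 16.3% and 18.9%. The Mmp genes had 9 higher and 1 lower of 16 tested, the Adamts genes 5 higher and 2 lower of 13, and the Timp genes 2 higher of 3. The count of higher members fell to 8 without VC replicate 3, where the share of all genes called higher also dropped, to 9.9%, and these 8 were Mmp9, Mmp12, Mmp13, Mmp19, Adamts2, Adamts5, Adamts15 and Timp4. With both tumours numbered 4 left out, where 11% of all genes were called higher and 9.13% lower, it was 9, namely Mmp9, Mmp12, Mmp13, Mmp19, Mmp23, Mmp25, Adamts5, Adamts15 and Timp4, and 1 member, Adamts8, was then called lower.

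**Figure D1:**
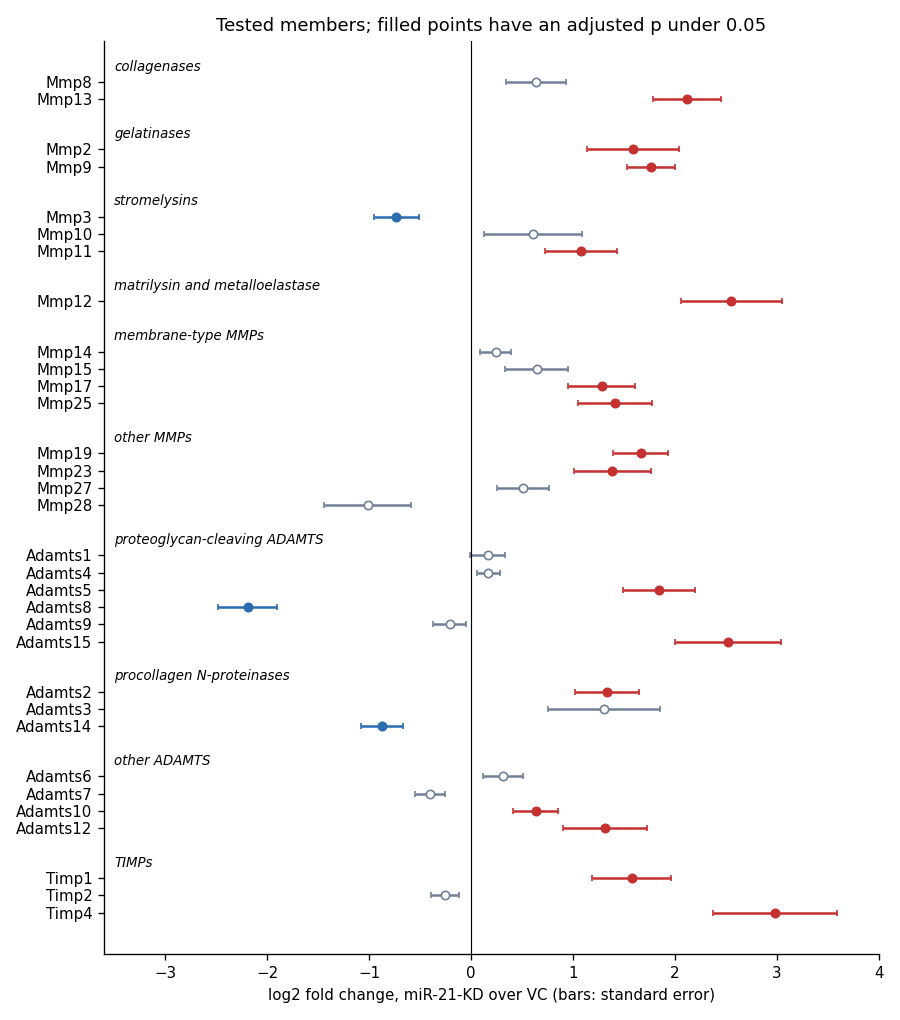
Log2 fold change of miR-21-KD over VC tumours for the 32 tested members, grouped by role, with bars of 1 standard error. Filled red points were called higher (16 genes), filled blue points lower (3 genes), and open grey points did not pass an adjusted p of 0.05. Timp4, Mmp12 and Adamts15 lie farthest to the right and Adamts8 farthest to the left.

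Divided by the length of their exons, which allows genes to be compared, the 45 members summed to 1286 to 2115 CPM per kb in the VC tumours and to 2968 to 4929 CPM per kb in the miR-21-KD tumours. Timp1 had the highest mean level per kb over all 8 tumours, followed by Mmp13, Mmp9, Mmp12, Timp2, Mmp3, Mmp14 and Mmp2. The order differed between the groups. In VC tumours Timp1 (447 ± 215 CPM per kb, SD, n = 4) was followed by Timp2 (286 ± 34.8), Mmp3 (239 ± 55.6), Mmp9 (196 ± 22.6) and Mmp13 (171 ± 74.2), and each lay within 1 SD, the larger of the pair, of the next. In miR-21-KD tumours Timp1 (1333 ± 462 CPM per kb) was followed by Mmp13 (740 ± 65.4), Mmp12 (678 ± 269) and Mmp9 (666 ± 198), of which the MMPs lay within 1 SD of each other and below Timp1 by more than that. Mmp9, Mmp12 and Mmp13 together made up 21.1% to 32.2% of the summed level of the members in VC tumours and 43.9% to 50.5% in miR-21-KD tumours.

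**Figure D2:**
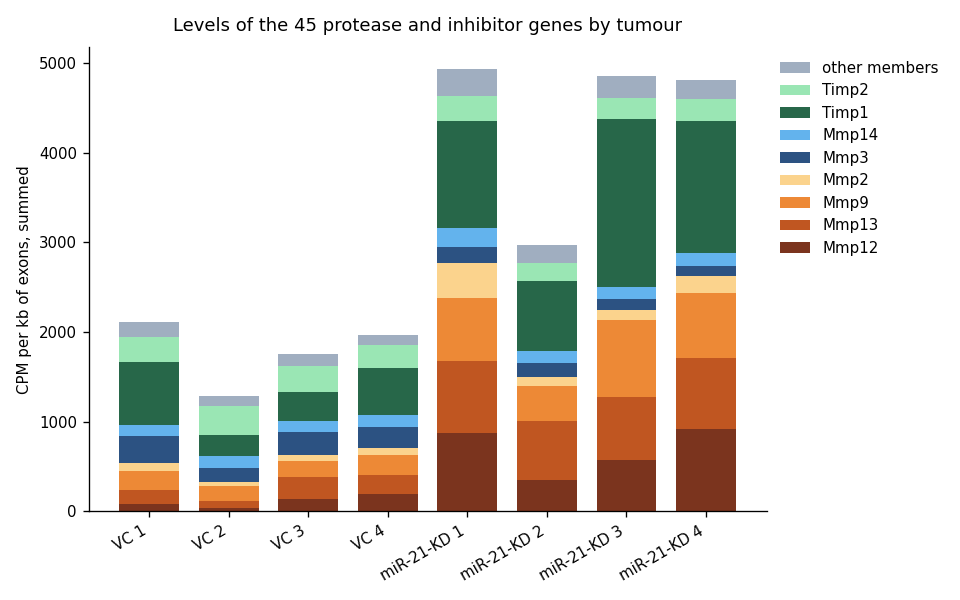
Stacked levels of the 45 members in each tumour, in CPM per kb of exons, with the 8 members of highest mean level shown in colours of their own and the other members in grey. The 4 miR-21-KD bars reach 2968 to 4929 and the 4 VC bars 1286 to 2115, and Mmp9, Mmp12, Mmp13 and Timp1 fill most of the added height.

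Macrophage metalloelastase, encoded by Mmp12, degrades elastin and is made mainly by macrophages. Mmp12 measured 329, 172, 571 and 768 CPM in the VC tumours and 3502, 1384, 2274 and 3642 CPM in the miR-21-KD tumours. Every miR-21-KD tumour lay above every VC tumour, with the lowest miR-21-KD value in replicate 2 (log2 fold change 2.55, standard error 0.49, edgeR adjusted p = 0.00845). Its fold change was 2.27 to 2.91 on the log2 scale when each tumour was left out in turn.

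Among the collagenases, which cleave fibrillar collagen, Mmp13 is the principal interstitial collagenase of the mouse. Mmp13 measured 417, 193, 634 and 581 CPM in the VC tumours and 2126, 1774, 1890.2 and 2122 CPM in the miR-21-KD tumours. The miR-21-KD tumours were close to each other, all were above all VC tumours, and VC replicate 2 was the lowest (log2 fold change 2.12, standard error 0.33, edgeR adjusted p = 0.00585). Mmp8, the collagenase of neutrophil granules, ranged from 8.22 to 19.9 CPM in VC and from 16.6 to 29.7 CPM in miR-21-KD tumours and was not called (log2 fold change 0.63, standard error 0.30, edgeR adjusted p = 0.115). Mmp1a and Mmp1b, related genes of the same cluster, were too low to be tested, with 4 to 7 counts of Mmp1a in each VC tumour and 0 to 2 in each miR-21-KD tumour. Without the filter on low counts Mmp1a was called lower (log2 fold change -2.40, edgeR adjusted p = 0.0233).

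Both gelatinases, which digest denatured collagen and the type IV collagen of basement membranes, were higher in miR-21-KD tumours. Mmp9 measured 659, 539, 593 and 702 CPM in the VC tumours and 2234, 1225, 2707 and 2294 CPM in the miR-21-KD tumours. The groups were apart, with miR-21-KD replicate 2 nearest to the VC tumours (log2 fold change 1.76, standard error 0.23, edgeR adjusted p = 0.00501). The other gelatinase gene, Mmp2, is typically expressed by fibroblasts. Mmp2 measured 297, 121, 178 and 223 CPM in the VC tumours and 1193, 309, 371 and 589 CPM in the miR-21-KD tumours. Its groups also did not overlap, though VC replicate 1 and miR-21-KD replicate 2 nearly met and miR-21-KD replicate 1 was far above the rest (log2 fold change 1.59, standard error 0.45, edgeR adjusted p = 0.0251). The call for Mmp2 was lost without VC replicate 2 (adjusted p = 0.0657), VC replicate 3 (0.0697) or miR-21-KD replicate 4 (0.0553) in edgeR, and without miR-21-KD replicate 1 its log2 fold change was 1.05.

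The stromelysins did not share a direction. Of these, Mmp3 and Mmp10 encode enzymes with broad matrix substrates that also activate other proMMPs. Mmp3 measured 532, 295, 469 and 427 CPM in the VC tumours and 339, 289, 205 and 204 CPM in the miR-21-KD tumours. Mmp3 was thus lower in miR-21-KD tumours while the groups overlapped, since VC replicate 2 fell below miR-21-KD replicate 1 (log2 fold change -0.73, standard error 0.22, edgeR adjusted p = 0.0326). This call was lost without VC replicate 1 (edgeR adjusted p = 0.0701), VC replicate 3 (0.0801), miR-21-KD replicate 3 (0.0834) or miR-21-KD replicate 4 (0.0869). Mmp10, the second stromelysin, ranged from 13.2 to 62.97 CPM in VC and from 43.4 to 84.6 CPM in miR-21-KD tumours, without a call (log2 fold change 0.61, standard error 0.48, edgeR adjusted p = 0.333). Stromelysin-3, the product of Mmp11, is known as a stromal gene of breast carcinoma. Mmp11 measured 15.9, 16.4, 14.7 and 16.8 CPM in the VC tumours and 61.3, 16.3, 25.2 and 31.9 CPM in the miR-21-KD tumours. Its level in miR-21-KD replicate 2 lay within the VC range and that in replicate 1 was far above it (log2 fold change 1.08, standard error 0.35, edgeR adjusted p = 0.0399). The Mmp11 call did not survive leaving out any one of 7 tumours (edgeR adjusted p = 0.053 to 0.0977), miR-21-KD replicate 2 being the exception, and its log2 fold change was 0.62 without miR-21-KD replicate 1. It was also lost with the block for replicate number (edgeR adjusted p = 0.0511), with no filter on low counts (0.0535) and with limma-voom (0.0784).

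Of the membrane-type MMPs, which act at the cell surface, 4 were tested and 2 were called. Mmp14 encodes MT1-MMP, the activator of proMMP2, and was the most highly expressed of them per kb. Mmp14 measured 512, 555, 520.1 and 564 CPM in the VC tumours and 841, 528, 566 and 611 CPM in the miR-21-KD tumours. The groups overlapped, and miR-21-KD replicate 1 was the highest tumour (log2 fold change 0.24, standard error 0.15, edgeR adjusted p = 0.221). The GPI-anchored Mmp25, also known as leukolysin from its expression in leucocytes, was higher in miR-21-KD tumours. Mmp25 measured 12.5, 4.39, 9.3 and 14.8 CPM in the VC tumours and 36.4, 30.7, 17.2 and 25.05 CPM in the miR-21-KD tumours. The groups did not overlap, and the lowest miR-21-KD tumour was replicate 3 (log2 fold change 1.41, standard error 0.36, edgeR adjusted p = 0.0185), but without VC replicate 3 the edgeR adjusted p was 0.055. Mmp17, the other GPI-anchored member, was higher at a low level. Mmp17 measured 1.03, 1.2, 0.630 and 1.06 CPM in the VC tumours and 3.07, 1.41, 2.11 and 2.97 CPM in the miR-21-KD tumours. All miR-21-KD values were above all VC values (log2 fold change 1.28, standard error 0.33, edgeR adjusted p = 0.0179), and the call was lost without VC replicate 3 (edgeR adjusted p = 0.0545) or miR-21-KD replicate 4 (0.0531). Mmp15, for MT2-MMP (log2 fold change 0.64, edgeR adjusted p = 0.126) was called only without miR-21-KD replicate 2 (0.026) and with sample quality weights in limma-voom (0.0234).

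Among the remaining MMPs, Mmp19 had the clearest separation. It encodes a protease with basement membrane substrates. Mmp19 measured 102, 41.01, 48.6 and 67.2 CPM in the VC tumours and 208, 187, 247 and 179 CPM in the miR-21-KD tumours. The lowest miR-21-KD tumour exceeded the highest VC tumour (log2 fold change 1.66, standard error 0.27, edgeR adjusted p = 0.00632). Exons of Mmp19 share 22.8% of their length with Tmem198b on the opposite strand, and since the strand setting of the counting is not given in the sources used here, reads of the shared part could not be told apart. Tmem198b itself averaged 18.1 CPM in the VC and 14.3 CPM in the miR-21-KD tumours, without a call (edgeR adjusted p = 0.0755). Mmp23 encodes an MMP that lacks the usual cysteine switch. Mmp23 measured 11.8, 4.79, 8.51 and 14.96 CPM in the VC tumours and 38.6, 15.5, 22.97 and 27.6 CPM in the miR-21-KD tumours. Its groups were separated by a small margin, between VC replicate 4 and miR-21-KD replicate 2 (log2 fold change 1.39, standard error 0.37, edgeR adjusted p = 0.0215), and the edgeR adjusted p was 0.0625 without VC replicate 3, 0.054 without miR-21-KD replicate 1 and 0.0536 without miR-21-KD replicate 4. Mmp27 (log2 fold change 0.51, edgeR adjusted p = 0.135) and Mmp28 (-1.02, 0.0843) were not called, and Mmp28 passed as lower without VC replicate 1 (edgeR adjusted p = 0.0221).

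**Figure D3:**
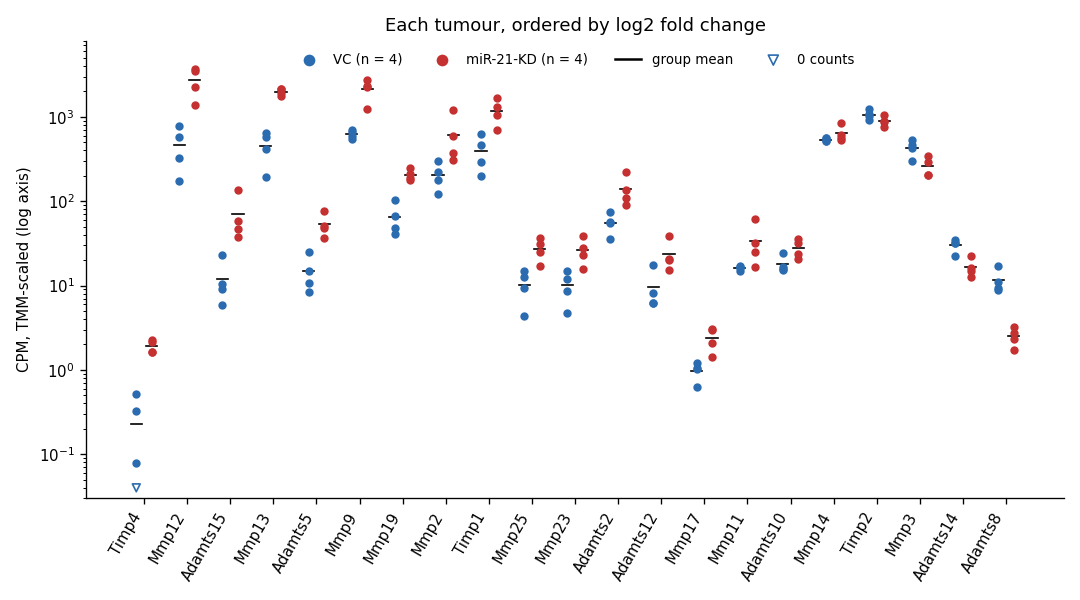
CPM of each tumour on a log axis for the members described in full, ordered from the largest rise to the largest fall. Blue points are VC tumours, red points miR-21-KD tumours and black lines group means, and the open triangle marks 0 counts of Timp4 in VC replicate 3. The groups are apart for the 13 members Timp4, Mmp12, Adamts15, Mmp13, Adamts5, Mmp9, Mmp19, Mmp2, Timp1, Mmp25, Mmp23, Adamts2 and Mmp17 and, in the other direction, for Adamts8.

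Of these MMP genes, 10 are neighbours. On chromosome 9 (GRCm38.p6) Mmp13, Mmp12, Mmp1b, Mmp3, Mmp1a, Mmp10, Mmp8, Mmp27, Mmp20 and Mmp7 lie in this order within 427.1 kb, from 7272514 to 7699585, with no other protein-coding gene between them. Along this cluster Mmp13 and Mmp12, at one end, were higher in miR-21-KD tumours, Mmp3, which starts 173 kb from the start of Mmp13, was lower, and Mmp10, Mmp8 and Mmp27 were not called. Mmp1a, Mmp1b, Mmp20 and Mmp7 were not tested, and Mmp20 and Mmp7 had 1 count each over all tumours. In the GENCODE annotation 157 bases of Mmp12 exons overlap Mmp1b on the opposite strand.

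**Figure D4:**
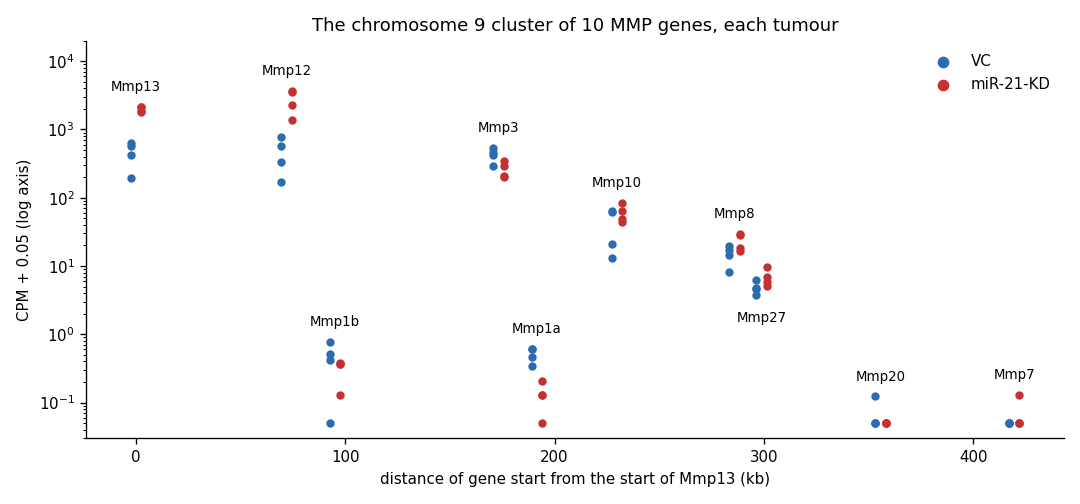
Each tumour's CPM plus 0.05 on a log axis for the 10 MMP genes of the chromosome 9 cluster, against the distance of the gene start from the start of Mmp13 in kb. Blue points are VC and red points miR-21-KD tumours. Red points are above blue points for Mmp13 and Mmp12, mostly below for Mmp3, and mixed or near 0 farther along.

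The cluster is known for AP-1 sites close to its gene starts, and the consensus letters TGAGTCA, with TGACTCA on the other strand, were therefore looked for in the 250 bases before each start in the RefSeq promoter table. They were present in 1395 of 27025 genes (5.16%). Of the 31 members with an entry, 7 had a match, and all 7 are in the cluster (Mmp1a, Mmp1b, Mmp3, Mmp7, Mmp10, Mmp12 and Mmp13). None of the 21 members with an entry outside the cluster had one. The 14 without an entry were not searched (Mmp2, Mmp9, Mmp16, Mmp17, Mmp19, Adamts4, Adamts5, Adamts6, Adamts7, Adamts8, Adamts10, Adamts15, Adamts16 and Adamts19). The last 100 bases before the start are printed for 4 cluster genes with a match and clearly counted RNA, to show that genes which were higher, lower and not called carried the same letters, which are in capitals (GRCm38.p6, plus strand, chr9:7272414-7272513 for Mmp13, chr9:7347274-7347373 for the second start of Mmp12, chr9:7445722-7445821 for Mmp3 and chr9:7502242-7502341 for Mmp10).
Mmp13: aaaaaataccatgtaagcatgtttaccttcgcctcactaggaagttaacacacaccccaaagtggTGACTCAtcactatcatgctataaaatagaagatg
Mmp12: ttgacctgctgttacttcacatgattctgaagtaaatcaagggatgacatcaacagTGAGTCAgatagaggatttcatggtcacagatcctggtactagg
Mmp3: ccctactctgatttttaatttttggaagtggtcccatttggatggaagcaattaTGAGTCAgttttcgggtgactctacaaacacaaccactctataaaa
Mmp10: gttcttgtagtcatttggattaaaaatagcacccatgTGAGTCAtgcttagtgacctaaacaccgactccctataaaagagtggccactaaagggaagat
The match began 35 bases before the start in Mmp13, 44 in Mmp12, 46 in Mmp3 and 63 in Mmp10. The first listed start of Mmp12, at 7344397, had no match in its window. A match of letters is a description of the sequence and not a measurement of binding.

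The ADAMTS members that cleave aggrecan, versican and related proteoglycans included the largest changes of that family, in opposite directions. Adamts15 encodes a versicanase of remodelling tissue. Adamts15 measured 23.1, 5.9, 9.14 and 10.3 CPM in the VC tumours and 134, 37.7, 47.4 and 58.8 CPM in the miR-21-KD tumours. All miR-21-KD tumours exceeded all VC tumours, with replicate 1 of each group the highest of its group (log2 fold change 2.52, standard error 0.52, edgeR adjusted p = 0.01). Adamts8, also named METH-2 for its metalloprotease domain and thrombospondin repeats, was the only tested member lower without overlap. Adamts8 measured 8.78, 9.25, 17.02 and 10.95 CPM in the VC tumours and 1.7, 2.75, 3.25 and 2.35 CPM in the miR-21-KD tumours. The miR-21-KD tumours had 21 to 40 counts each and the VC tumours 116 to 216 (log2 fold change -2.19, standard error 0.29, edgeR adjusted p = 0.00501). These genes are direct neighbours on chromosome 9, Adamts15 from 30899155 to 30922452 and Adamts8 from 30942562 to 30963838, with a gap of 20.1 kb and no annotated gene between them. Exons of Adamts8 share 13.5% of their length with Gm29724 on the opposite strand.

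Adamts5, a major aggrecanase of cartilage, was higher as well. Adamts5 measured 25.1, 8.38, 10.7 and 14.9 CPM in the VC tumours and 76.5, 36.9, 50.2 and 48.7 CPM in the miR-21-KD tumours. The groups did not overlap, and VC replicate 2 and miR-21-KD replicate 2 were the lowest of their groups (log2 fold change 1.84, standard error 0.35, edgeR adjusted p = 0.00837). The other proteoglycan-cleaving members showed no call. Adamts1, which is induced by inflammation, had a log2 fold change of 0.16 (edgeR adjusted p = 0.486), Adamts4, the other classical aggrecanase, 0.17 (0.238), and Adamts9, a versicanase, -0.21 (0.326). Adamts20 had 36 counts in all and was not tested.

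The procollagen N-proteinases remove the amino-terminal propeptide of fibrillar collagens, and the 3 of them did not move together. Adamts2 was higher. Adamts2 measured 73.5, 35.7, 55.1 and 57.1 CPM in the VC tumours and 224, 89.3, 109 and 135 CPM in the miR-21-KD tumours. Its groups did not overlap, and miR-21-KD replicate 1 was the highest tumour (log2 fold change 1.33, standard error 0.31, edgeR adjusted p = 0.0138), while leaving out both tumours numbered 4 gave an edgeR adjusted p of 0.057. Adamts14 was lower. Adamts14 measured 22.2, 34.5, 31.8 and 32.1 CPM in the VC tumours and 14.95, 22.5, 15.99 and 12.5 CPM in the miR-21-KD tumours. VC replicate 1 fell just below miR-21-KD replicate 2, and the other tumours were apart (log2 fold change -0.87, standard error 0.21, edgeR adjusted p = 0.014); its edgeR adjusted p was 0.0634 without the tumours numbered 4. Adamts3, with 4 to 26 counts per VC tumour and 13 to 40 per miR-21-KD tumour, was not called (log2 fold change 1.30, standard error 0.55, edgeR adjusted p = 0.0884), but it was with the block for replicate number (edgeR adjusted p = 0.0428), without VC replicate 1 (0.0243) or without miR-21-KD replicate 2 (0.0436), and with limma-voom and quality weights (0.0147).

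Among the other ADAMTS members, Adamts12 and Adamts10 were called higher, but neither call held in every alternative. Adamts12 encodes a protease of cartilage oligomeric matrix protein. Adamts12 measured 17.5, 8.14, 6.15 and 6.13 CPM in the VC tumours and 38.6, 20.04, 20.5 and 15.3 CPM in the miR-21-KD tumours. VC replicate 1 exceeded miR-21-KD replicate 4 (log2 fold change 1.31, standard error 0.41, edgeR adjusted p = 0.0347), and the call was lost without VC replicate 2, 3 or 4 (edgeR adjusted p = 0.0871, 0.0922 and 0.0675) or without miR-21-KD replicate 1 or 3 (0.0885 and 0.0601). Adamts10, which acts on fibrillin microfibrils, was called by a small margin. Adamts10 measured 15.3, 15.7, 16.6 and 24.6 CPM in the VC tumours and 35.6, 20.8, 23.8 and 31.7 CPM in the miR-21-KD tumours. VC replicate 4 lay within the miR-21-KD range (log2 fold change 0.63, standard error 0.22, edgeR adjusted p = 0.047), and the call was lost without any one of 6 tumours (edgeR adjusted p = 0.0625 to 0.118), the exceptions being VC replicate 4 and miR-21-KD replicate 2, as well as with library size scaling (0.0533) and no filter on low counts (0.0563). Adamts7, another protease of cartilage oligomeric matrix protein, was not called (log2 fold change -0.40, standard error 0.15, edgeR adjusted p = 0.0589), yet passed as lower with the block (edgeR adjusted p = 0.0447), with library size scaling (0.0473), with no filter on low counts (0.0477), without miR-21-KD replicate 1 (0.0176) and in limma-voom without and with quality weights (0.0424 and 0.00672). Adamts6, a relative of Adamts10, had a log2 fold change of 0.31 (edgeR adjusted p = 0.226).

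Of the TIMPs, Timp1 was the member of highest level per kb and Timp4 the tested member of lowest total count. Timp1 encodes the inducible inhibitor, which binds most secreted MMPs. Timp1 measured 631, 201, 289 and 468 CPM in the VC tumours and 1062, 695, 1667 and 1312 CPM in the miR-21-KD tumours. Its groups were apart, and VC replicate 1 and miR-21-KD replicate 2 came closest to each other (log2 fold change 1.58, standard error 0.39, edgeR adjusted p = 0.0159), with an edgeR adjusted p of 0.0507 without VC replicate 3 and 0.0601 without the tumours numbered 4. Timp2, the constitutive inhibitor that also takes part in the activation of proMMP2, was not called. Timp2 measured 1024, 1233, 1066 and 923 CPM in the VC tumours and 1056, 747, 869.8 and 883 CPM in the miR-21-KD tumours. Its groups overlapped (log2 fold change -0.26, standard error 0.14, edgeR adjusted p = 0.169), although limma-voom with sample quality weights called it lower (log2 fold change -0.30, adjusted p = 0.0344). Timp4, the least widely expressed of the family, had 7, 1, 0 and 4 counts in the VC tumours and 28, 21, 20 and 27 in the miR-21-KD tumours. No VC tumour reached the level of any miR-21-KD tumour or the minimum count of the filter, which Timp4 passed only through the group where it is high, and the total over all tumours was 108 counts (log2 fold change 2.98, standard error 0.61, edgeR adjusted p = 0.00955). Its fold change rests on these few VC counts and was 2.58 to 3.74 on the log2 scale when each tumour was left out, and it was not tested under the filter of 10 counts in every tumour. Exons of Timp4 share 1.5% of their length with Syn2 on the opposite strand, which also rose, from a mean of 0.973 to 2.51 CPM (edgeR adjusted p = 0.014). Per kb, the summed level of Timp1, Timp2 and Timp4 was 559 to 986 CPM in VC and 984 to 2112 CPM in miR-21-KD tumours, and that of the Mmp genes 670 to 1137 and 1915 to 3330 CPM.

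The other 13 members were not tested because of low counts. Mmp21 had no count in any tumour, Mmp7 and Mmp20 had 1 count each and Mmp24 had 2. Adamts13, the protease of von Willebrand factor, had 15 counts in all, and Mmp16, Adamts16, Adamts17, Adamts19 and Adamts20 between 31 and 59. Adamts18 had the most, with 62 counts, of which 32 were in a single miR-21-KD tumour. Without the filter on low counts Mmp1a was the one of these genes that passed the threshold, and for the others a difference was not detectable at this depth.

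Matches to the miR-21 seed were looked for in the annotated 3′ UTRs (GENCODE M21, GRCm38), as the letters ATAAGCT, which pair with bases 2 to 8, or TAAGCTA, which pair with bases 2 to 7 and end in an A opposite base 1. One or the other was present in 5 of the 45 members, Adamts5, Adamts6, Adamts20, Mmp21 and Timp2. Among tested members 3 of 32 (9.38%) had a match, against 12.9% of the 13342 tested genes with a 3′ UTR, 13.1% of those called higher and 12.8% of those called lower. The sites of the 3 tested members are shown with the match in capitals, since of these only Adamts5, whose site is of the shorter kind that leaves base 8 unpaired, was called higher (matches at chr16:85858179-85858185, minus strand, for Adamts5, chr13:104494689-104494695, plus strand, for Adamts6 and chr11:118302340-118302346, minus strand, for Timp2).
Adamts5: ccattcattatTAAGCTAatgcacaggaa
Adamts6: catgcggaaagATAAGCTggcttagtaat
Timp2: cgtcttaaaaaATAAGCTgtcccaaggac
None of Mmp2, Mmp9, Mmp12, Mmp13, Mmp19, Timp1 and Timp4 had a match.

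Genes that activate, dock, resemble or feed these enzymes were followed as a list of 52, of which 42 were tested. Of these, 22 (52.4%) were higher in miR-21-KD tumours and 4 (9.5%) were lower, beside 19.6% and 19.5% of all genes tested. Differences between the groups of this list were not tested. Of the substrates, 8 of 11 tested (72.7%) were called higher and none was called lower. Fn1 measured 3635, 2437, 1984 and 2695 CPM in the VC tumours and 10914, 5462, 11332 and 8355 CPM in the miR-21-KD tumours, and this gene for fibronectin did not overlap between groups (log2 fold change 1.75, standard error 0.28, edgeR adjusted p = 0.00585). Vwf, for the von Willebrand factor that Adamts13 cuts, was 8.22 to 23.3 CPM in VC and 28.9 to 67.9 CPM in miR-21-KD tumours (log2 fold change 1.96, standard error 0.37, edgeR adjusted p = 0.00785). The cartilage oligomeric matrix protein gene Comp (log2 fold change 2.23), Fbn1 for fibrillin-1 (1.54), Tnc for tenascin C (1.44), Vcan for versican (1.33), Eln for elastin (1.23) and Nid1 for nidogen-1 (0.79) were also called higher. Hspg2 (log2 fold change -0.28, edgeR adjusted p = 0.0883), Nid2 (-0.36, 0.192) and Spp1 (-0.12, 0.772) were not called, although Hspg2 was lower without overlap. Acan, for aggrecan, was not tested.

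Of 13 tested inhibitors, activators and docking proteins 4 (30.8%) were higher and 1 (7.7%) was lower, again beside 19.6% and 19.5% of all genes. The proprotein convertases Pcsk5 and Furin, which cleave the prodomain of several of these proteases, were both higher, while Pcsk6 was not called (log2 fold change 0.65, edgeR adjusted p = 0.25). Pcsk5 measured 46.02, 10.7, 17.5 and 20.2 CPM in the VC tumours and 237, 63.04, 127 and 140.3 CPM in the miR-21-KD tumours, without overlap (log2 fold change 2.58, standard error 0.51, edgeR adjusted p = 0.00918). Furin was 197 to 281 CPM in VC and 336 to 402 CPM in miR-21-KD tumours (log2 fold change 0.60, standard error 0.12, edgeR adjusted p = 0.00922). Pcolce, which enhances the cleavage of the carboxy-terminal procollagen propeptide, was lower, with 357 to 465 CPM in VC and 228 to 286 CPM in miR-21-KD tumours (log2 fold change -0.70, standard error 0.12, edgeR adjusted p = 0.00681). Reck, a membrane-anchored MMP inhibitor, had a log2 fold change of -0.15 (edgeR adjusted p = 0.649).

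Related metalloproteases were higher in 7 of 12 tested (58.3%, beside 19.6% of all genes) and lower in none. Adam8, a protease of leucocytes, was 324 to 507 CPM in VC and 678 to 1108 CPM in miR-21-KD tumours (log2 fold change 1.16, standard error 0.19, edgeR adjusted p = 0.00601), and Adam23, whose product lacks protease activity, was 2.79 to 6.49 and 12.5 to 19.4 CPM (log2 fold change 1.69, standard error 0.27, edgeR adjusted p = 0.00589). The ADAMTS-like genes, for proteins without a protease domain, divided evenly, with 3 higher and 3 lower of 6. Adamtsl3 was lower, with 34.95 to 50.9 CPM in VC and 3.15 to 15.01 CPM in miR-21-KD tumours (log2 fold change -2.29, standard error 0.45, edgeR adjusted p = 0.00854), and Thsd4, a fibrillin-binding member, was lower too, with 6.27 to 16.2 CPM and 3.30 to 5.92 CPM (log2 fold change -1.28, standard error 0.32, edgeR adjusted p = 0.0171). Adamtsl4 (log2 fold change 0.49, standard error 0.11, edgeR adjusted p = 0.0137) and Adamtsl5 (log2 fold change 0.87, standard error 0.23, edgeR adjusted p = 0.0209) were higher, the latter with miR-21-KD replicate 2 at 9.83 CPM within the VC range of 8.46 to 10.5 CPM. The call for Adamtsl5 was lost without any one of VC replicates 2 and 3 and miR-21-KD replicates 1, 3 and 4 (edgeR adjusted p = 0.0526 to 0.0602), and those for Adamtsl4 (0.0548) and Thsd4 (0.0677) without the tumours numbered 4. Over the whole list the count of higher genes fell to 14 without VC replicate 3 or without miR-21-KD replicate 1, and to 8 with both tumours numbered 4 left out, while the share of all genes called higher fell to 9.9%, 12.9% and 11%.

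The summed markers of fibroblasts and of macrophages were higher in every miR-21-KD tumour than in any VC tumour, while the sums for neutrophils and carcinoma epithelium overlapped between the groups. The summed level of 9 fibroblast markers was 3206 to 8299 CPM in VC and 10771 to 23819 CPM in miR-21-KD tumours, and 7 of the 9 were called higher. This sum is mostly Col1a1, Col1a2 and Col3a1, and of the receptor markers Pdgfra (means of 228 and 178 CPM in VC and miR-21-KD tumours) and Pdgfrb (83.9 and 133 CPM) were not called. The 9 macrophage and monocyte markers summed to 3155 to 4994 CPM and 6996 to 11095 CPM, with 8 called higher. Neutrophil markers overlapped between groups, at 293 to 864 CPM and 400 to 915 CPM, with 1 of 8 tested called higher and the defining marker Ly6g too low to be tested. Of the T cell markers, 5 of 7 were called higher, from 40.7 to 161 CPM in VC to 144 to 322 CPM in miR-21-KD tumours as a sum, and all 4 adipocyte markers were (14.3 to 69.5 CPM and 112 to 370 CPM). Carcinoma epithelium markers summed to 1290 to 2222 CPM in VC and 1034 to 1949 CPM in miR-21-KD tumours, with 5 of 7 called higher and 1 lower. Krt8 and Krt18 made up most of this sum in the VC tumours but not in miR-21-KD replicates 1 and 4, and Cdh1, Krt19 and Krt14 taken singly were higher without overlap. The 7 endothelial markers (396 to 686 CPM and 579 to 810.0 CPM, 1 higher) and the 5 mast cell markers (164 to 357 CPM and 258 to 333 CPM, 1 higher) overlapped, and none of the 4 B cell markers and not the 1 skeletal muscle marker tested was called. No marker of any list was at 0 in all tumours. The part of these cell types in the changes of the proteases was not tested.

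The tumours of a group kept a rough order across members. Among the 16 members called higher, miR-21-KD replicate 1 had the highest miR-21-KD level in 12 and replicate 2 the lowest in 12, and VC replicate 2 had the lowest VC level in 11. The fibroblast marker sum had the same extremes, with 23819 CPM in miR-21-KD replicate 1, 10771 CPM in miR-21-KD replicate 2 and 3206 CPM in VC replicate 2. Other sums shared some of these extremes. The macrophage sum was highest in miR-21-KD replicate 3, at 11095 CPM. It was lowest among the miR-21-KD tumours in replicate 2, at 6996 CPM, and among the VC tumours in replicate 3, at 3155 CPM. The T cell sum was highest in miR-21-KD replicate 1 (322 CPM) and lowest in miR-21-KD replicate 3 (144 CPM) and VC replicate 2 (40.7 CPM). The adipocyte sum was highest in miR-21-KD replicate 4 (370 CPM) and lowest in miR-21-KD replicate 2 (112 CPM) and VC replicate 2 (14.3 CPM). What sets the order of the tumours was not tested. The 12 highest in miR-21-KD replicate 1 were Mmp2, Mmp11, Mmp13, Mmp17, Mmp23, Mmp25, Adamts2, Adamts5, Adamts10, Adamts12, Adamts15 and Timp4. Mmp9, Mmp19 and Timp1 were highest in replicate 3 and Mmp12 in replicate 4.

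**Figure D5:**
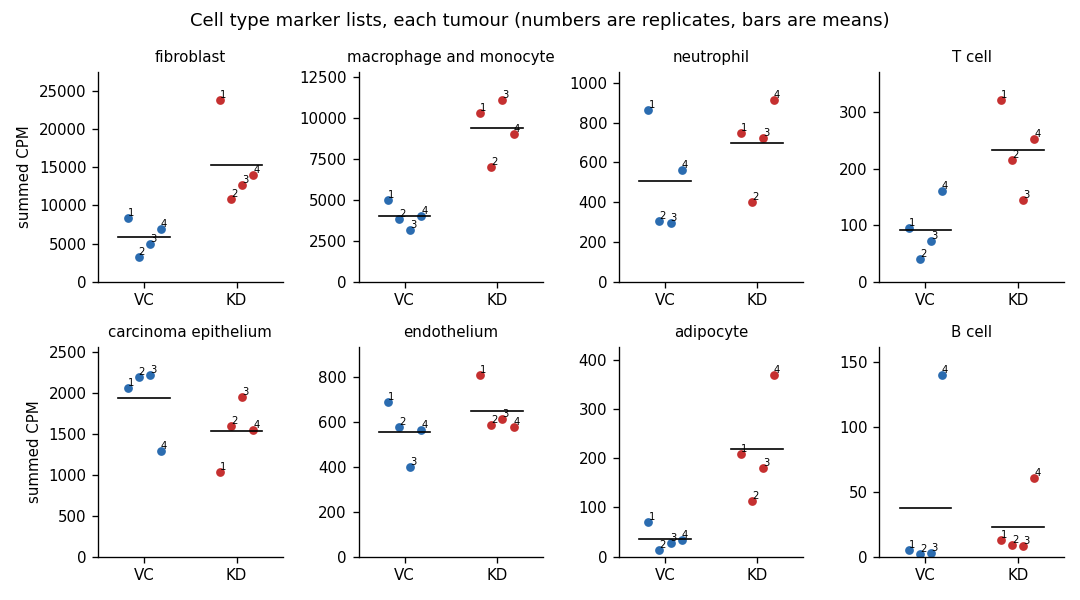
Summed CPM of 8 cell type marker lists in each tumour, with the replicate number beside each point and a bar at the group mean. Fibroblast, macrophage and adipocyte sums do not overlap between VC and miR-21-KD (KD) tumours, neutrophil, endothelial, epithelial and T cell sums do, and replicate 4 stands apart for B cells in both groups.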

How the data were processed

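RNA sequencing covered 8 whole tumours, 4 VC and 4 miR-21-KD. The deposited table holds raw read counts per Entrez identifier, made by the authors without normalization, in 1 column per tumour. The submitters' processing notes name Subread, featureCounts, edgeR, limma and the build mm10, and the versions, annotation and strand setting are not given in the sources used here. Symbols, coordinates and promoters came from RefSeq (GRCm38.p6, with 25275 of 27179 identifiers matched) and exon lengths and 3′ UTRs from GENCODE M21. Exons shared with a gene on the opposite strand can carry reads of either gene. No pair of tumours in a group was alike within sampling noise (chi-square per degree of freedom 12.6 to 70.7). The study describes the tumours as biological replicates, and p-values rest on the spread between them, not between separately made pools of cells.

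Genes were kept by filterByExpr with a minimum count of 10 and a minimum total of 15, and the 14382 genes kept held 99.852% of the counts. Libraries were scaled with TMM and compared by the robust quasi-likelihood test of edgeR 4.0.16 in R 4.3.3, with Benjamini-Hochberg adjustment over all tested genes and a threshold of 0.05. Standard errors came from the estimate and the F statistic. The procedure was tested on simulated data. CPM per kb divides CPM by the length of the merged exons. Per-tumour values are given for members past the threshold, the 8 members of highest level per kb and the Timp genes, and for each group of partner genes the 2 genes per direction with the smallest adjusted p are given with full statistics. Other partner genes named were chosen after their values were seen. The members and all lists were chosen with earlier results of these data known, and the lists were not tested as sets.

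Alternatives were library size and upper-quartile scaling, no filter, a filter of 10 counts in every tumour, limma-voom (limma 3.58.1) with and without quality weights, DESeq2 1.42.0, a block for the replicate number and each tumour left out. Leaving out both tumours numbered 4 was added after the B cell markers had been seen. The labels number the tumours 1 to 4 in both groups without saying what they share. After removal of group means the same-numbered pairs correlated at 0.272, 0.421, 0.175 and 0.376, and the 12 differently numbered pairs ranged from -0.393 to 0.393. Some of the latter exceeded the lowest same-numbered value. As every same-numbered correlation was above 0.1, the block is printed where it changed a call, but what the numbers share is not given in the sources used here.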

Additional observations from a re-analysis of the deposited data

Results flagged for a closer look

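Within a group of 4 tumours, a tumour was singled out when its gap to the nearest other tumour took up more of the range of the group than Dixon's critical value allows at the 95% level. This was applied to 84 groups of 4 values and singled out 7, where chance gives about 1 in 20. Of the members, Adamts10 stood out in VC replicate 4, at 24.6 CPM against 15.34 to 16.55 CPM in the other VC tumours. Of the partner genes, both were low in miR-21-KD replicate 2. Adamtsl5 was 9.825 CPM there against 19.4 to 20.59 CPM in the other miR-21-KD tumours, and Vwf was 28.93 CPM against 62.17 to 67.94 CPM. The remaining 4 were sums of marker genes. B cell markers summed to 140.6 CPM in VC replicate 4 against 1.755 to 4.941 CPM in the other VC tumours, and to 60.43 CPM in miR-21-KD replicate 4 against 8.521 to 13.1 CPM. Endothelial markers summed to 810.0 CPM in miR-21-KD replicate 1 against 578.5 to 614.0 CPM, and skeletal muscle markers to 5.577 CPM in the same tumour against 2.191 to 2.437 CPM.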

How the results depend on the processing

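Across the alternatives none of the 32 genes named by rule changed direction. The count of members called higher, 16, was 8 to 18 when each tumour was left out in turn, lowest without VC replicate 3 and highest without miR-21-KD replicate 2, and 9 with both tumours numbered 4 left out. The share of all genes called higher moved alongside, from 19.6% to 9.9%, 22.5% and 11% in these fits. The 3 members called lower became 5 with no filter on low counts (Mmp1a and Adamts7 added), 5 with limma-voom and quality weights (Adamts7 and Timp2 added), 1 without the tumours numbered 4 and 2 to 4 with each tumour left out. Of the partner genes, 22 were higher, with 14 to 24 when each tumour was left out (14 without VC replicate 3 and without miR-21-KD replicate 1) and 8 without the tumours numbered 4, and 4 were lower, with 4 to 6 and, with quality weights, 8. With the replicate block 16 members were higher and 4 lower, since Mmp11 lost its call and Adamts3 and Adamts7 gained one, and 22 partner genes were higher and 4 lower. Over the 32 genes named by rule, 487 of 542 comparisons left direction and call unchanged, 54 lost a call and 1 gained it, and 15 of the 30 that were called kept their call in all 17 alternatives, among them the 7 members Mmp9, Mmp12, Mmp13, Mmp19, Adamts5, Adamts8 and Adamts15. Timp4 kept its call in the 16 in which it was tested and was left out by the filter of 10 counts in every tumour. The cause of these shifts was not tested. At this depth a difference was not detectable in 12 of the 13 untested members, Mmp1a being the exception when no filter was used.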
